A study of Mus musculus with 4 samples.

Results

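The collagen gene family was described across the cell types of mouse gingiva, from single-cell RNA-seq. Its members were all genes whose symbol has the form of a numbered collagen alpha chain and that held at least 20 unique molecular identifiers (UMIs, which count captured RNA molecules) over the 4 libraries. This gave 44 of the 31253 genes in the matrices, which were all 44 genes with such a symbol. The smallest totals were 25 UMIs for Col6a4 and 39 for Col26a1, and no gene fell below the threshold. By the structures that they build, the members were 11 fibrillar, 9 fibril-associated, 6 basement membrane network, 6 beaded filament, 4 transmembrane, 3 hexagonal network and 2 multiplexin collagens, 1 anchoring fibril collagen and 2 others.

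Collagens are proteins of 3 alpha chains wound into a triple helix. Fibrillar collagens such as types I, III and V assemble into the tensile fibres of gum and periodontal ligament, type IV forms the network of basement membranes under epithelium and around vessels, and type XVII and type VII help to fasten keratinocytes to the tissue below. In periodontitis the collagen fibres of the gingiva are known to be broken down while fibroblasts, vessels and epithelium remodel the wound.

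Each of the 4 groups was 1 library. Mice of the genotype labelled Itga9-Lyz2-cHet (called cHet here) and of the genotype labelled Itga9-Lyz2-cKO (called cKO) were each sampled as a control and with periodontitis (PD), which was induced by tying silk around a maxillary second molar and adding Porphyromonas gingivalis, with gingiva taken after 14 days. The day of the controls and the number of mice pooled in a library are not given in the sources used here. Itga9 encodes an integrin subunit, and the Lyz2 gene is active in myeloid cells and is commonly used to drive Cre recombinase there. The alleles behind the genotype names and the age of the mice are not given in the sources used here, and no library is labelled as wild type. With 1 library in a group no test between groups was possible, and every difference below is between 2 libraries.

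The tissue had been dissociated with collagenases and dispase, and the matrices held 33854 barcodes, of which 31150 were kept. Total UMIs per library ran from 21368197 to 62914870. The lowest barcode held 1501 UMIs in both controls and 500 in both PD libraries. Median UMIs per barcode were 5292 and 5076 in the cHet and cKO controls and 2934 and 2509 in the PD libraries. Pairs of libraries shared 65 to 116 barcode sequences, at most 1.32% of the smaller library. Cell types were rebuilt by clustering without the collagens, and were named from other marker genes. Fibroblasts numbered 126, 241, 97 and 74 in the order cHet control, cHet PD, cKO control and cKO PD, which is the order of values throughout. The same order gave 43, 103, 93 and 155 mural cells (pericytes and smooth muscle), 136, 565, 258 and 390 blood endothelial cells, 2439, 116, 2600 and 214 basal keratinocytes, and 146, 0, 16 and 62 chondrocytes. Bone-forming cells were 1, 6, 0 and 33. The tissue is labelled gingiva, and the cartilage and bone cells in it show that the libraries also held neighbouring tissue in different amounts. A change in the number of cells of a type cannot be told apart from a difference in dissection or dissociation.

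Levels are given as CPM, the usual unit of scaled counts: the UMIs of a gene in all cells of a type in a library, divided by all UMIs of those cells and scaled to the usual common total. They are not corrected for gene length, so 1 gene is compared across types and libraries, and genes are not ranked against each other. Intervals are exact 95% intervals for counting error only. They do not cover differences between mice, and UMIs that sit in a few cells are not independent. A member was called higher or lower where 2 libraries differed at least 2-fold with 10 CPM added to each, held at least 20 UMIs together, and had a ratio interval that excluded 1. The share of all genes called by that rule in the same comparison is given as the background.

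The sequences at or before the starts of 6 members are shown first, from RefSeq on build GRCm38.p6. The members are the type IV pair, because its genes share a start, and 4 members of other structural kinds. The levels of these 4 are followed in fibroblasts and mural cells below. Col4a1 and Col4a2, the paired chains of the common type IV network, are transcribed away from each other on chromosome 8, and their annotated starts overlap by 22 bases at chr8:11312805-11312826, where Col4a2 starts on the plus strand and Col4a1 on the minus strand. Capitals mark GGGCGG, the GC box.
Col4a1 and Col4a2 shared start, plus strand: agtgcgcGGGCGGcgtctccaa
The 120 bases before the start of Col3a1, Col5a3, Col6a3 and Col15a1 follow, each on the strand of its gene. They lie at chr1:45311418-45311537 (plus), chr9:20815068-20815187 (minus), chr1:90843972-90844091 (minus) and chr4:47207892-47208011 (plus). Capitals mark TATAAA, or CCGCCC where GGGCGG is on the opposite strand. The TATAAA of Col3a1 lies 117 to 112 bases before its start.
Col3a1: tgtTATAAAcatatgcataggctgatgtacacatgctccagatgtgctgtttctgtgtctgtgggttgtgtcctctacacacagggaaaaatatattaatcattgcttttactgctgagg
Col5a3: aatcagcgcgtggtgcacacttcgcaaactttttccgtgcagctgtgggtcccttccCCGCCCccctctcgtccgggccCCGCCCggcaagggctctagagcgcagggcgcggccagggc
Col6a3: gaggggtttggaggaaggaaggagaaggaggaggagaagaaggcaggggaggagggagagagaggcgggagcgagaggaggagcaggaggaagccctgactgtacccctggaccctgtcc
Col15a1: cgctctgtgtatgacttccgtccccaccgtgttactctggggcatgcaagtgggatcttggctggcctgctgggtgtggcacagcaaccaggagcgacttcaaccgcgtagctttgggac
The Col3a1 window was 40% G and C against 70% for Col5a3, 63.3% for Col6a3 and 60% for Col15a1. Searched on both strands, GGGCGG stood in 18 of 38 windows of 35 collagen genes (47.4%) and in 26.5% of 32851 windows of the same length over all genes. CCAAT stood in 6 of the 38 windows (15.8%, against 21.3% of all windows), and TATAAA in 3 (7.89%, against 6.34%), those of Col10a1, Col17a1 and Col3a1. These are matches of letters and not measured sites.

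Collagens made up 0.223%, 0.609%, 0.120% and 0.745% of all UMIs in the libraries, so the family took a larger share in both PD libraries. Within fibroblasts the share was 4.42%, 10.9%, 3.31% and 14.0%. Within mural cells it was 0.466%, 5.75%, 0.583% and 2.50%, and within blood endothelial cells 0.316%, 1.04%, 0.245% and 0.982%. In all 3 of these types both PD libraries lay above both controls. The 33 bone-forming cells of the cKO PD library, 0.500% of its cells, held 36.6% of its collagen UMIs, and fibroblasts held 22.1%. In the cHet PD library fibroblasts held 57.3% and 6 bone-forming cells 5.04%. A collagen level over a whole library therefore also follows how many bone and cartilage cells it holds, and levels below are given within a type.

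Each member had a cell type in which its CPM was highest, among fibroblasts, mural, blood endothelial, chondrocyte and basal keratinocyte classes with enough cells. In the cHet control, 33 members held at least 20 UMIs in their top type, and fibroblasts and chondrocytes headed 13 each, blood endothelium 3, and mural cells and basal keratinocytes 2 each. In the cKO PD library, of 32 members, fibroblasts headed 14, chondrocytes 11, endothelium 5, mural cells 1 and basal keratinocytes 1. The cHet PD and cKO control libraries had too few chondrocytes to compare. There fibroblasts headed 17 of 27 and 14 of 24 members, mural cells 7 and 6, endothelium 2 and 2, and basal keratinocytes 1 and 2. Col1a1, Col1a2, Col3a1, Col5a1, Col5a2 and Col14a1 were highest in fibroblasts in all 4 libraries, Col17a1 in basal keratinocytes, and Col13a1, a transmembrane collagen, in blood endothelium. The heat map of CPM by type shows these blocks. Type IV chains Col4a1 and Col4a2 changed their leading type: endothelium led in the cHet control and the cKO PD library, and mural cells in the other two. In the cHet control the endothelial level of Col4a1 was 1.11 times the mural level (interval 0.915 to 1.36), which does not separate the types. There 0 of the 3 members that endothelium headed, Col13a1 included, were clear of the next type. In the cKO control 1 of 2 was clear.

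**Figure D1:**
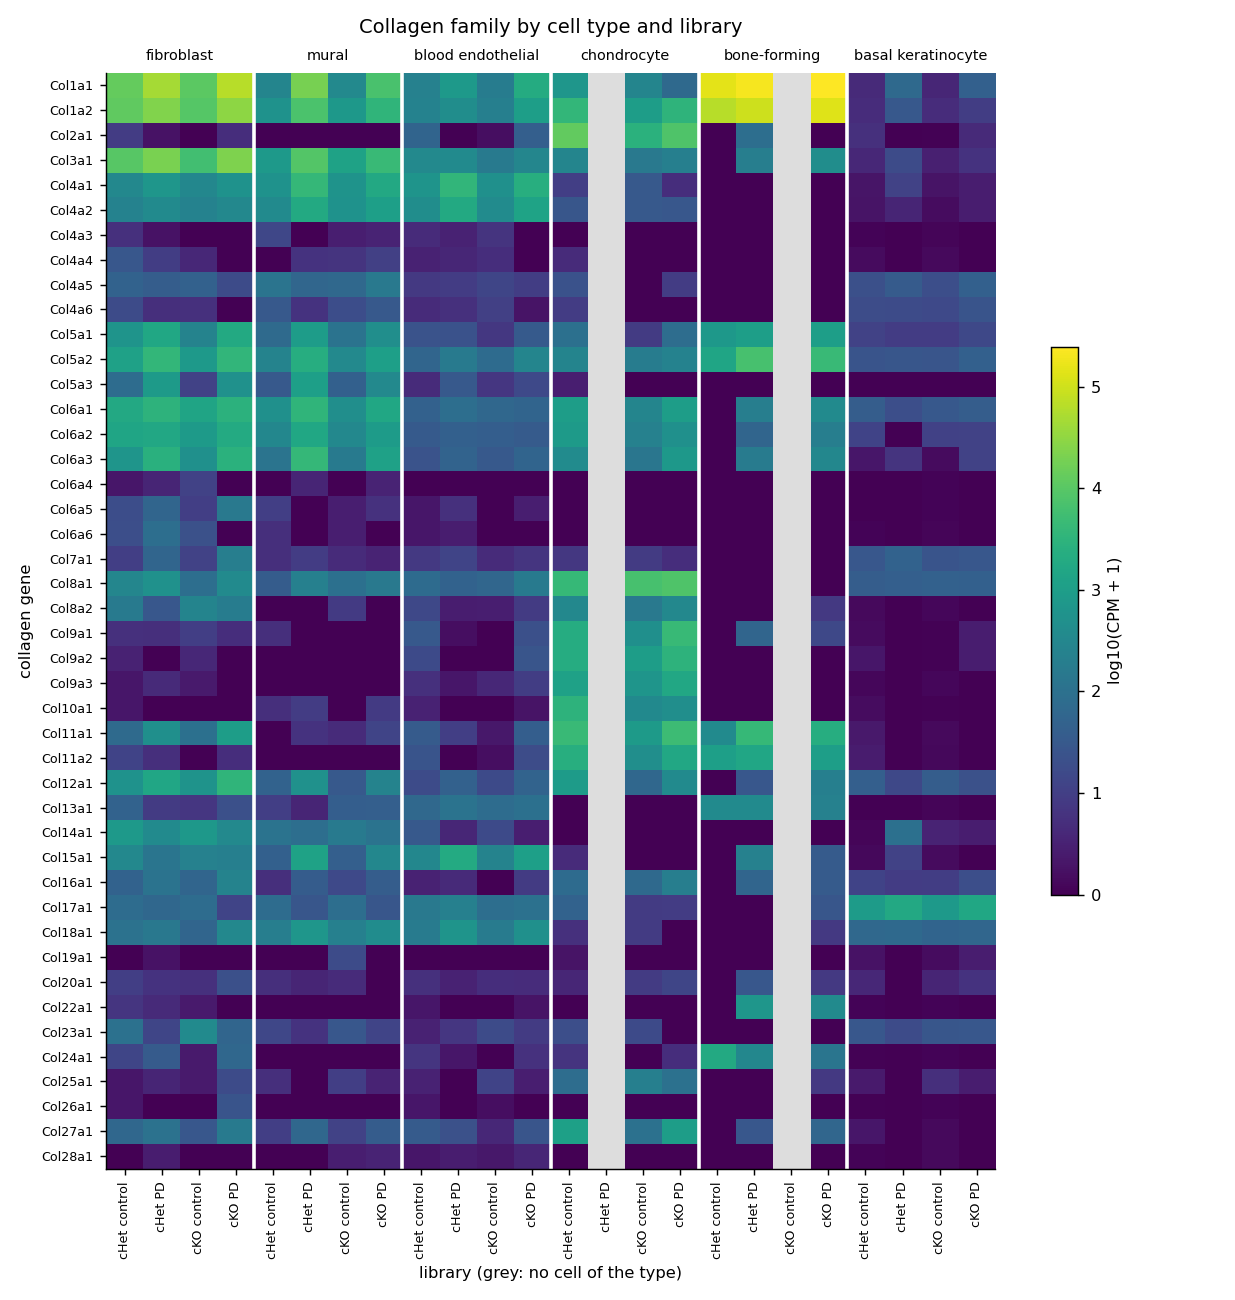
Level of each of the 44 collagen genes (rows) in 6 cell types and 4 libraries (columns), as log10 of CPM + 1, with grey where a library had no cell of the type. Fibrillar collagens fill the fibroblast and bone-forming blocks, Col2a1, Col9a1 to Col9a3 and Col10a1 the chondrocyte block, and Col17a1 the basal keratinocyte block.

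In fibroblasts, 6 of 9 fibre-forming collagens with enough UMIs were called higher with periodontitis in cHet and 8 of 8 in cKO, and none was called lower. Of all genes, 6.98% were called higher and 10.9% lower in cHet, and 7.09% higher and 15.7% lower in cKO. Col1a1, the alpha 1 chain of type I collagen and the main fibre protein of gum, stood at 13216, 46997, 10550 and 65716 CPM. Both PD libraries lay above both controls, by 3.56-fold in cHet (interval 3.49 to 3.63) and 6.23-fold in cKO (6.06 to 6.41). Its partner Col1a2 stood at 11934, 23238, 9501 and 29964 CPM, 3.15-fold higher with PD in cKO (3.05 to 3.26), while the cHet difference of 0.96 on the log2 scale was not called. Col3a1, the type III chain of thin and healing fibres, stood at 9862, 20016, 5863 and 22734 CPM, 2.03-fold and 3.88-fold higher.

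Chains of types V and XI, which nucleate the type I fibre and set its diameter, followed, and of these Col5a3 and Col11a1 had larger folds than Col1a1 in both genotypes. Col5a1 levels were 619, 1589, 260 and 1874 CPM, and Col5a2 levels 1226, 3688, 784 and 3545 CPM. Col5a3, the least common type V chain, was at 80.1, 865, 10.4 and 521 CPM, 10.8-fold higher with PD in cHet (8.48 to 13.9) and 49.9-fold in cKO (23.5 to 127), where the control held 7 UMIs. Col11a1 rose from 73.4 to 476 CPM in cHet and from 97.0 to 983 in cKO, or 6.49-fold and 10.1-fold. For all 4 of these chains both PD levels exceeded both control levels.

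Over the family, 13 of 29 members with enough UMIs were called higher and 6 lower in cHet fibroblasts with PD, against 6.98% and 10.9% of all genes. In cKO fibroblasts 17 of 25 were higher and 4 lower, against 7.09% and 15.7%. Of 25 members with enough UMIs in both genotypes, 11 were higher in both and 2, Col14a1 and Col23a1, were lower in both. The share of all genes called in both genotypes is not given here. At 1500 UMIs or more per cell in every library, 13 and 17 members were called higher, as counts only.

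Beaded filaments of type VI collagen, which tie cells to the fibres, showed 1 chain moving apart from the other two. Col6a3 stood at 634, 2700, 506 and 2789 CPM, 4.26-fold and 5.51-fold higher with PD, and the PD and control libraries did not overlap. Col6a1 was at 1757, 3019, 1422 and 2936 CPM and Col6a2 at 1458, 1667, 863 and 1934 CPM, and these were called higher in cKO (2.06-fold and 2.24-fold) but not in cHet. The rarer chain Col6a5 was at 18.1, 57.0, 8.96 and 151 CPM, higher with PD in both genotypes. Col6a6 was at 19.2, 86.4 and 20.9 CPM in the first 3 libraries and had no UMI in cKO PD fibroblasts, where a count of 0 allows up to 11.9 CPM.

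Among fibril-associated collagens, which coat the fibres, 2 members rose and 1 fell. Col12a1, found in tissue under load and in wounds, was at 553, 1531, 596 and 3326 CPM, 2.77-fold and 5.59-fold higher with PD. In the cKO control 77% of its UMIs sat in 5 cells. The cKO log2 fold of 2.46 was 1.07 with the finer clustering at resolution 2. In that clustering a cluster of 74 cKO control cells led by Apod was unnamed and not counted as fibroblasts. Col16a1 levels were 48.5, 112, 56.7 and 259 CPM, 2.31-fold and 4.56-fold higher. Col14a1, a collagen of resting fibroblasts and of dense tissue, was at 768, 379, 733 and 342 CPM, 2.03-fold lower in cHet (1.80 to 2.29) and 2.14-fold lower in cKO (1.70 to 2.73), with both PD libraries below both controls. The anchoring fibril collagen Col7a1 was at 9.03, 56.2, 10.4 and 199 CPM, 6.22-fold and 19.0-fold higher, but 5 cells held 86% of its UMIs in the cKO PD library.

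The other called members of fibroblasts went in both directions. Col23a1, a transmembrane collagen, was at 102, 12.1, 373 and 55.7 CPM, 8.40-fold lower with PD in cHet and 6.70-fold lower in cKO. Col15a1, a basement membrane collagen of the multiplexin type, was at 332, 122, 230 and 215 CPM, 2.72-fold lower in cHet (2.22 to 3.35) and not called in cKO. Col18a1, the other multiplexin and the source of endostatin, was at 107, 143, 56.7 and 326 CPM, called higher in cKO (5.75-fold). The hexagonal network chains also split: Col8a1 was at 301, 528, 89.6 and 382 CPM, called higher in cKO (4.27-fold), and Col8a2 at 166, 27.7, 264 and 187 CPM, called lower in cHet (6.0-fold). Col4a1 was at 330, 686, 312 and 561 CPM, called higher in cHet (2.08-fold), and the cartilage-type fibrillar gene Col27a1 was at 61.0, 106, 28.4 and 155 CPM, called higher in cKO (5.47-fold).

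The fibroblasts of control and PD libraries fell into different clusters, and the collagens differed between those clusters. Cluster S1, led by Apod, Dcn and Mfap4, held 107 and 91 of the control cells but 8 and 2 of the PD cells. Cluster S16, led by Il1rl1, Postn and Mmp13, held 6, 100, 1 and 31 cells, and cluster S19, led by Ptx3, Tnfaip6 and Ccl2, held 0, 123, 0 and 6. Within the PD libraries the 2 clusters differed: Col1a1 in S16 was 66043 CPM in cHet and 88196 in cKO, against 21491 and 21444 in S19. Col12a1 was 2547 and 5069 CPM in S16 against 261 and 290 in S19, and Col11a1 was 828 and 1555 CPM in S16 against 47.1 and 0 in S19 (0 UMIs in 6 cells). Col14a1 ran the other way, at 64.0 and 268 CPM in S16 and 842 and 1304 in S19, close to the 874 and 788 CPM of the control cells in S1. In PD libraries the low Col14a1 values were those of S16, while Col1a1 in S19 was above the 9558 and 6496 CPM of control S1 cells.

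The fibroblast class also differed in markers of other cells. Summed over 14 mural markers it held 593, 381, 4722 and 549 CPM, led in the cKO control by Acta2 at 2466 CPM, while Rgs5, which defines pericytes, was at 3 CPM there. Summed over 13 bone markers it held 713, 309, 187 and 1257 CPM, since 2 small clusters of 13, 10, 5 and 35 cells carried over 100 CPM of Ibsp, a bone matrix gene. Without those clusters, a choice made after seeing the data, the class held 113, 231, 92 and 39 cells. The log2 fold of Col1a1 with 10 CPM added was then 2.26 in cHet and 3.60 in cKO, against 1.83 and 2.64 with those clusters. The part of the mural genes in the cKO control was not tested.

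**Figure D2:**
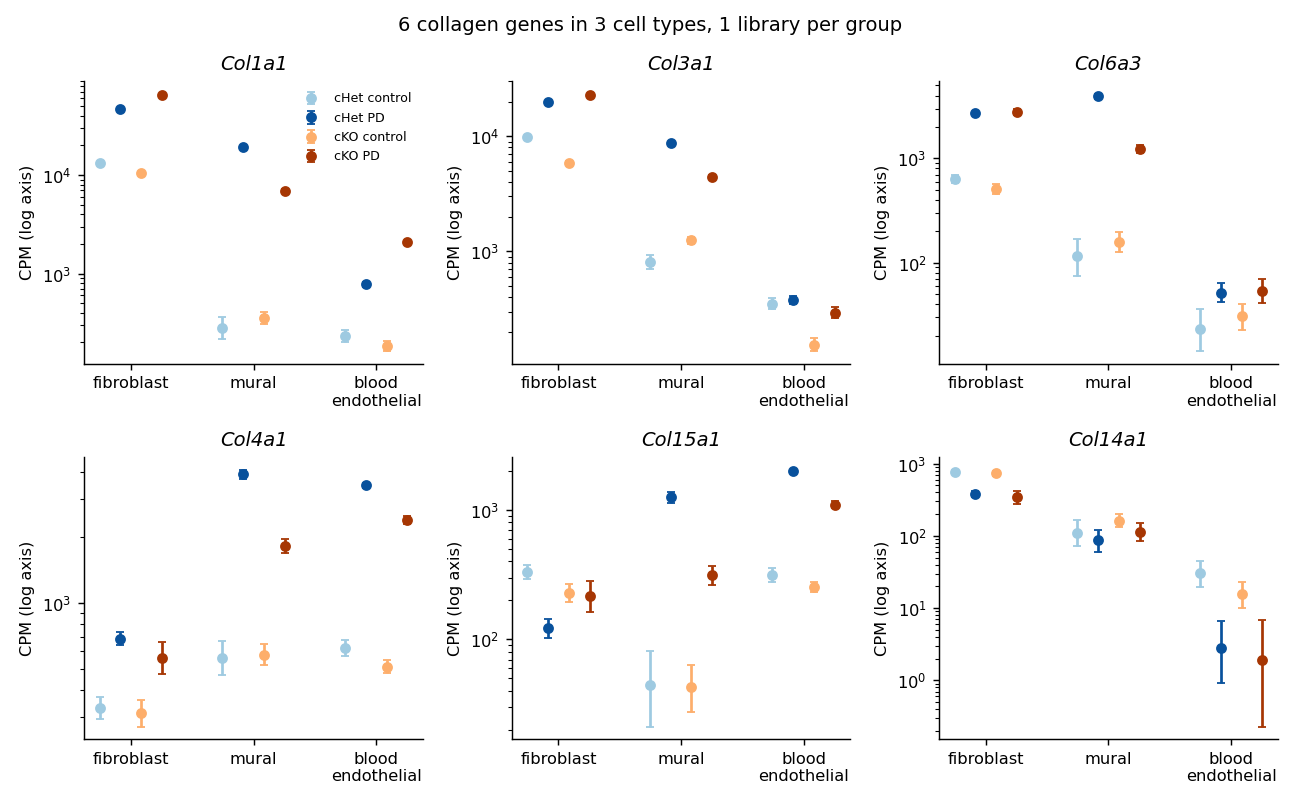
CPM (log axis) of 6 collagen genes in fibroblasts, mural cells and blood endothelial cells, 1 point per library with its exact 95% counting interval. Col1a1, Col3a1 and Col6a3 in fibroblasts and mural cells, and Col4a1 and Col15a1 in mural and endothelial cells, lie higher in both PD libraries, while Col15a1 in fibroblasts does not and Col14a1 in fibroblasts lies lower.

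In mural cells the fibrillar collagens were higher with PD from low control levels. Their Col1a1 stood at 280, 19372, 351 and 6943 CPM, 69.3-fold higher with PD in cHet (54.1 to 90.3) and 19.8-fold in cKO (17.1 to 22.9). Col1a2 was at 568, 7305, 764 and 3329 CPM and Col3a1 at 812, 8686, 1247 and 4436 CPM, 10.7-fold and 3.56-fold higher. In PD libraries 5 cells held 37% and 51% of the mural Col1a1 UMIs. Thinned to 1000 UMIs per cell, the share of mural cells with a Col1a1 UMI was 18.6%, 64.8%, 29.0% and 58.4%, and unthinned 37.2%, 67.0%, 57.0% and 65.2%. T and natural killer cells, which should lack the gene, had 2.22%, 7.59%, 0% and 7.27% when thinned (0 of 62 cells allows up to 4.84%), below the mural shares of every library.

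The called members of mural cells numbered 16 higher and 1 lower of 19 in cHet, against 12.1% and 10.5% of all genes, and 15 higher and 1 lower of 23 in cKO, against 7.25% and 9.11%. Of 19 members with enough UMIs in both pairs, 14 were higher in both and 1, the keratinocyte gene Col17a1, was lower in both, at 79.9, 26.4, 85.6 and 26.2 CPM. For calls in both pairs the share of all genes is not given here. The chains of the vessel basement membrane moved with the fibrillar ones. Col4a1 was at 559, 3881, 580 and 1829 CPM (6.94-fold and 3.15-fold) and Col4a2 at 386, 1859, 557 and 1129 CPM (4.81-fold and 2.03-fold). Col6a3 was at 115, 3944, 159 and 1226 CPM, 34.2-fold (23.2 to 52.5) and 7.72-fold higher, and Col5a3 at 31.1, 1101, 44.6 and 343 CPM, from a control that held 7 UMIs in cHet. Col15a1 was at 44.4, 1246, 42.8 and 312 CPM, 28.1-fold and 7.28-fold higher, in contrast to its level in fibroblasts. Col18a1 was at 204, 684, 227 and 410 CPM and Col12a1 at 48.8, 525, 30.3 and 260 CPM, whereas Col14a1, at 111, 87.1, 162 and 114 CPM, was not called.

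These levels came mainly from 1 of 2 mural clusters. Cluster S12, led by Rgs5, Timp3 and Acta2, held 22, 67, 47 and 59 cells, and its Col1a1 was 547, 26075, 608 and 17916 CPM. Cluster S13, led by Acta2 and Myh11, held 21, 36, 46 and 96 cells with Col1a1 at 71.1, 214, 150 and 985 CPM. Col6a3 showed the same split, at 132, 5299, 308 and 3038 CPM in S12 and 103, 71.3, 41.4 and 242 CPM in S13. For Col4a1 both clusters were higher with PD, at 719, 4900, 798 and 3376 CPM in S12 and 434, 968, 408 and 988 CPM in S13. Since S12 made up 67 of 103 mural cells in cHet PD and 59 of 155 in cKO PD, the mural class mixes these clusters in different parts.

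Of the fibroblast markers, Dcn, Lum and Mfap4 were lower in the mural class than in fibroblasts, but Pdgfrb was higher in every library. Pdgfrb was at 226, 243, 257 and 155 CPM in mural cells against 55.3, 64.0, 82.1 and 95.5 CPM in fibroblasts. Thy1 was at 319, 536, 253 and 288 CPM against 642, 235, 175 and 263 CPM. In mural cells Postn was at 93.2, 425, 153 and 324 CPM, and Prrx1 at 461, 451, 494 and 486 CPM. Dcn, which defines fibroblasts, was at 22.2, 58.1, 94.6 and 59.5 CPM in mural cells against 11948, 5315, 7028 and 2586 CPM in fibroblasts. Lum was at 0, 7.92, 0 and 16.7 CPM, and Pi16 and Mfap4 had no UMI in mural cells of any library. The 20 fibroblast markers summed to 2059, 2717, 2550 and 2602 CPM in mural cells, while Dcn and Lum differed more between the libraries. Their part in the mural collagen levels was not tested. Rgs5 was at 13086, 14987, 10871 and 23636 CPM.

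In blood endothelial cells the type IV chains Col4a1 and Col4a2 and both multiplexins, which are collagens of the vessel basement membrane, were higher with PD in both genotypes. The type IV chain Col4a5 was not called (log2 fold 0.07 in cHet and -0.29 in cKO), and Col4a3, Col4a4 and Col4a6 had too few UMIs in both pairs. Col4a1 was at 622, 3455, 510 and 2404 CPM, 5.55-fold (5.08 to 6.08) and 4.71-fold (4.36 to 5.10) higher. Col4a2 was at 434, 1841, 404 and 1310 CPM, 4.24-fold and 3.24-fold higher. Col15a1, which lies at the outer face of vessel basement membranes, was at 316, 1977, 254 and 1097 CPM, 6.26-fold and 4.31-fold higher, and Col18a1 at 171, 603, 175 and 500 CPM, 3.53-fold and 2.85-fold. In each of these 4 genes both PD libraries were above both controls, and no 5 cells held more than 47% of the UMIs.

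Thinned to 1000 UMIs, 39.0%, 70.5%, 37.6% and 68.4% of endothelial cells had a Col4a1 UMI (67.6%, 73.8%, 72.9% and 75.1% unthinned). T and natural killer cells had 0%, 1.27%, 1.61% and 1.82%, where 0 of 45 cells allows up to 6.67%. Col5a2 was at 56.1, 169, 75.4 and 283 CPM, 3.01-fold and 3.75-fold higher. The transmembrane Col13a1 was at 65.5, 110, 81.4 and 96.5 CPM and was not called. Col8a1, a collagen of the layer under endothelium, was at 77.2, 47.8, 60.5 and 167 CPM, called higher in cKO (2.77-fold) and not called in cHet.

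Altogether 8 of 25 members were called higher and 5 lower in cHet endothelium, against 5.85% and 5.35% of all genes, and 15 of 26 higher and 1 lower in cKO, against 3.78% and 5.3%. Col14a1 was called lower in both genotypes (log2 fold -1.66 and -1.10), and in neither without the top 5% of doublet scores. Several of these calls rested on few cells. Col1a1 was at 233, 773, 184 and 2066 CPM, and 5 cells held 92%, 54%, 90% and 64% of its UMIs. Col2a1, the cartilage fibre gene, was at 53.8, 0, 0.599 and 41.6 CPM, and its 44 UMIs in the cKO PD library came from 3 cells. Col9a1 was at 31.6, 0.562, 0 and 19.9 CPM and Col11a1 at 33.9, 8.99, 1.20 and 39.7 CPM, so all 3 were called lower with PD in cHet and higher in cKO. The libraries held 146, 0, 16 and 62 chondrocytes, and Col2a1 was in the same order in suprabasal keratinocytes, at 2.20, 0, 0.0588 and 1.21 CPM. A count of 0 for Col2a1 in cHet PD endothelium allows up to 1.69 CPM.

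Endothelial clusters differed in how much of the type IV and type XV genes they carried. Cluster S7, whose leading genes include Selp and Vim, held 5, 94, 2 and 56 cells and had Col4a1 at 6868 and 6281 CPM and Col15a1 at 4488 and 3107 CPM in the 2 PD libraries. Cluster S2, led by Selp and Plvap, which mark venous endothelium, held 47, 40, 144 and 96 cells with Col4a1 at 730, 2247, 509 and 1953 CPM and Col15a1 at 539, 2452, 345 and 1438 CPM. In cluster S5, led by the capillary genes Fabp4 and Lpl, Col4a1 was at 868, 1971, 991 and 1984 CPM, while Col15a1, at 291, 383, 241 and 418 CPM, differed less. Cluster S6, whose leading genes include the arterial gene Sema3g, had Col4a1 at 249, 2459, 283 and 1466 CPM and Col8a1 at 231, 325, 187 and 658 CPM. So Col4a1 was higher with PD in S2, S5 and S6, which each held at least 12 cells in every library. A further cluster of 203 cHet PD and 50 cKO PD cells with Pecam1 was led by interferon-induced genes, was not named by the markers and stayed outside the class, and its Col4a1 was 1919 and 1743 CPM. Cluster S10 carried Dcn at 669 CPM and Col1a1 at 2235 CPM over all libraries besides endothelial genes. Without S10 and S2, which both reached 100 CPM of Dcn, the class held 57, 388, 83 and 235 cells.

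**Figure D3:**
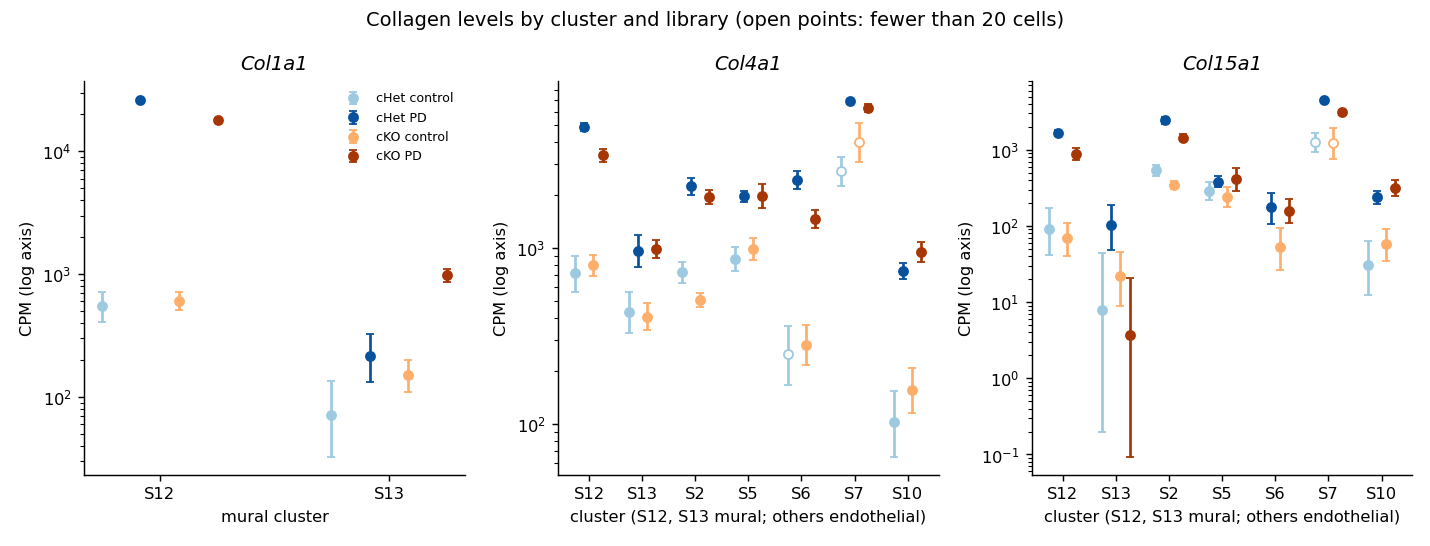
CPM (log axis) of Col1a1 in the 2 mural clusters, and of Col4a1 and Col15a1 in 2 mural and 5 endothelial clusters, by library with exact 95% counting intervals; open points have fewer than 20 cells, and Col15a1 in S6 of the cHet control, with 0 UMIs, is not drawn. Col1a1 is at 26075 and 17916 CPM in S12 of the PD libraries and at most 985 CPM in S13 of any library.

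**Figure D4:**
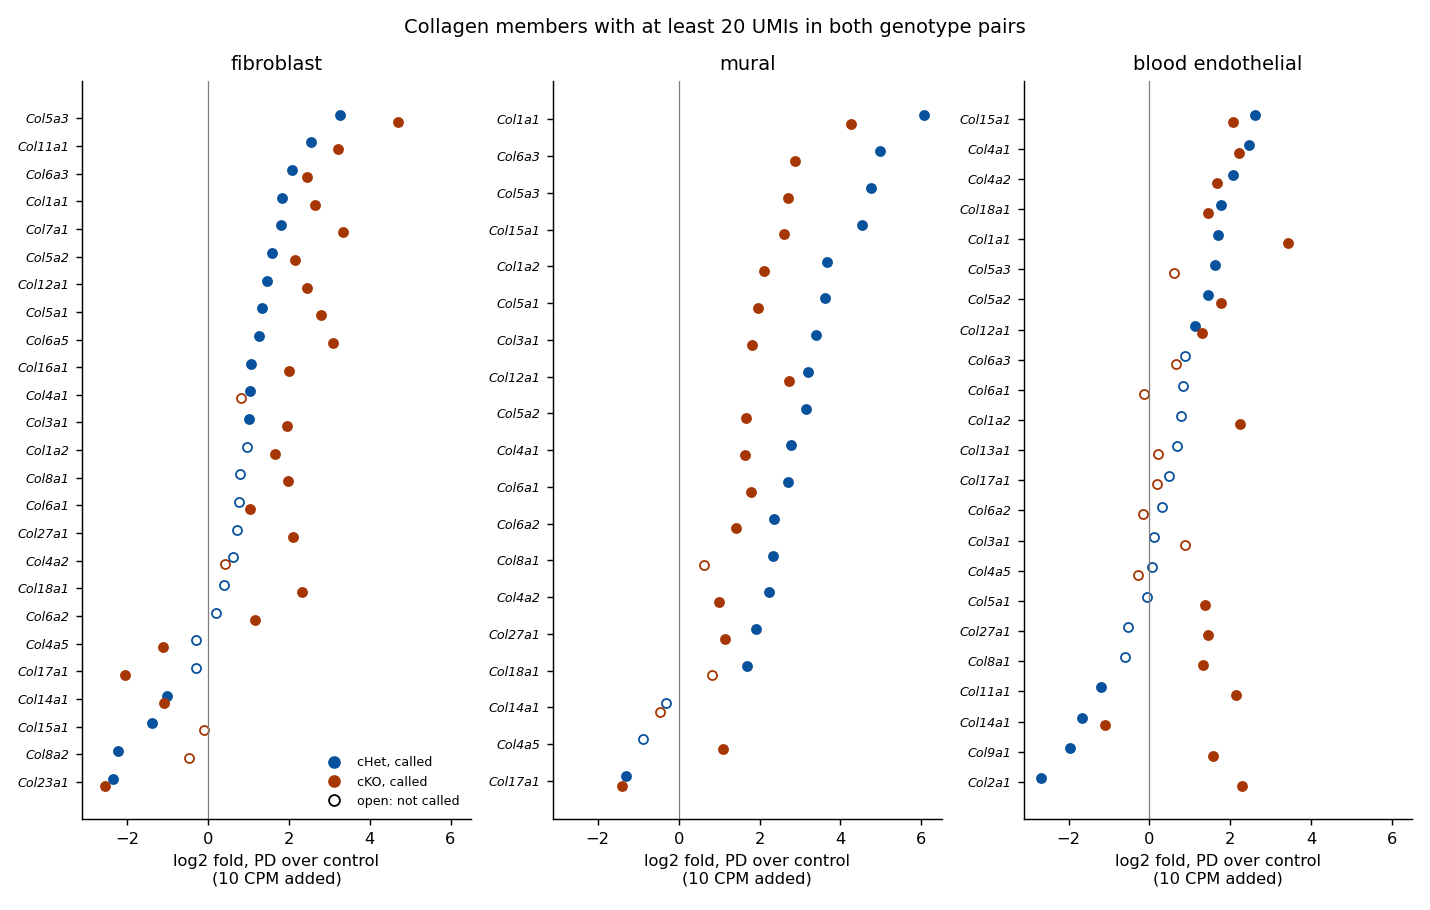
Log2 fold of PD over control, with 10 CPM added, for members with at least 20 UMIs in both genotype pairs, in fibroblasts, mural cells and blood endothelial cells; filled points were called. Col1a1 and Col6a3 head the mural panel, and Col15a1 and Col4a1 lead endothelium in cHet, while Col1a1 has the largest endothelial fold in cKO; Col2a1, Col9a1 and Col11a1 lie on opposite sides of 0 in endothelium.

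The ratio of 2 chains within a cell type does not depend on the total to which CPM is scaled. Type I collagen is built mostly from pairs of alpha 1 chains with 1 alpha 2 chain. UMIs of Col1a1 per UMI of Col1a2 in fibroblasts were 1.11, 2.02, 1.11 and 2.19. Mural cells had 0.492, 2.65, 0.460 and 2.09, and blood endothelial cells 0.943, 1.80, 0.877 and 2.01. In each of the 3 types both controls lay together and both PD libraries lay above them with intervals that did not overlap those of the controls. In endothelium, however, most Col1a1 UMIs of every library sat in few cells, which counting intervals do not cover. Part of that class also carried the fibroblast gene Dcn. Bone-forming cells had 2.27, 2.20 and 1.86 in the 3 libraries that held them. Basal keratinocytes, where Col1a1 was at most 67.0 CPM, had 0.881, 2.27, 0.746 and 5.00, so the ratio moved in the same direction in cells that are not a known source of type I collagen, and the part of free RNA in the low endothelial counts was not tested.

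Other chain pairs shifted as well. Col3a1 per Col1a1 fell in fibroblasts from 0.746 to 0.426 in cHet and from 0.556 to 0.346 in cKO, and in mural cells from 2.90 to 0.448 and from 3.55 to 0.639. Col6a3 per Col6a1 in fibroblasts was 0.361, 0.894, 0.356 and 0.95, and in mural cells 0.224, 1.16, 0.340 and 0.750. For the divergent type IV pair the differences were smaller: Col4a1 per Col4a2 in endothelium was 1.43, 1.88, 1.26 and 1.83, and in mural cells 1.45, 2.09, 1.04 and 1.62. The fibroblast ratios for type IV, at 1.34, 1.79, 1.27 and 1.70, had intervals that overlapped in both genotypes, and the mural intervals overlapped in cHet. Col5a1 per Col5a2 in mural cells, at 0.281, 0.421, 0.326 and 0.416, had overlapping intervals in both genotypes.

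**Figure D5:**
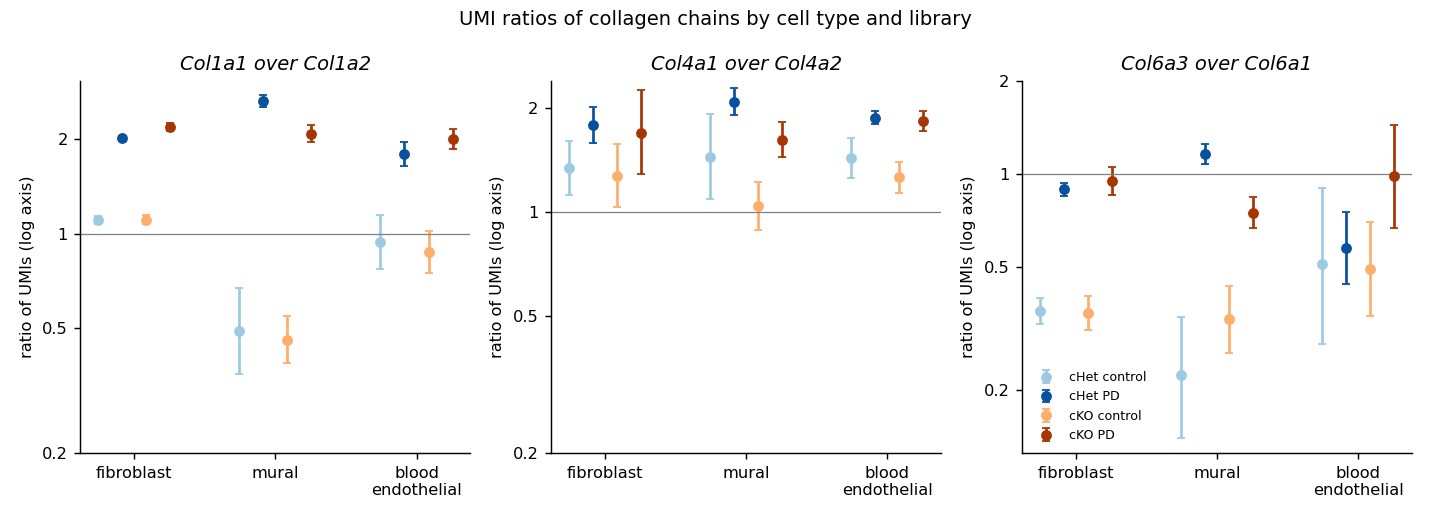
Ratio of UMIs of 2 chains (log axis) in fibroblasts, mural cells and blood endothelial cells, 1 point per library with its exact 95% counting interval. Col1a1 over Col1a2 is 0.460 to 1.11 in controls and 1.80 to 2.65 in PD libraries, Col4a1 over Col4a2 spans 1.04 to 2.09, and Col6a3 over Col6a1 is higher in PD libraries in fibroblasts and mural cells, while its endothelial intervals overlap.

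The cartilage collagens were found where the cartilage markers were. Chondrocytes of the cHet control, cKO control and cKO PD libraries had Col2a1 at 12582, 2807 and 8128 CPM, and none was in the cHet PD library. Col9a1, a chain of the type IX collagen that coats cartilage fibres, was at 2200, 483 and 4282 CPM, Col9a2 at 2169, 990 and 3032 CPM, and Col9a3 at 1217, 632 and 1713 CPM. Col11a1 was at 4548, 858 and 4995 CPM and Col11a2 at 2429, 452 and 1742 CPM. The cKO control values rest on 16 cells, 5 of which held 90% of the Col2a1 UMIs. With no chondrocyte in 1 library and 16 in another, no member was called for this type.

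Within the chondrocytes, Col10a1, the marker of hypertrophic cartilage, was at 3119, 359 and 460 CPM and in few cells: 27 of 146, 4 of 16 and 6 of 62 cells had a UMI. Col8a1 was at 4157, 6799 and 8047 CPM, and in the 2 libraries with at least 40 chondrocytes no other class compared had as much. Col1a2 was at 3636, 998 and 3258 CPM while Col1a1 was at 695, 288 and 68.5 CPM, so the ratio of Col1a1 to Col1a2 was 0.191, 0.289 and 0.0210, below the fibroblast, mural, endothelial and bone-forming ratios. Col27a1, a cartilage fibrillar collagen, was at 1157, 101 and 1008 CPM.

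Bone-forming cells had the highest type I collagen levels. In the 6 cells of the cHet PD library and the 33 of the cKO PD library Col1a1 was at 206820 and 246210 CPM, and Col1a2 at 93968 and 132302 CPM. Col5a2 was at 6649 and 4402 CPM, Col11a1 at 4184 and 2302 CPM and Col11a2 at 1519 and 1067 CPM, whereas Col3a1 was at 201 and 443 CPM against 20016 and 22734 CPM in the fibroblasts of these libraries. Col22a1, a junctional collagen, was at 688 and 376 CPM and Col24a1, a fibrillar gene of bone, at 315 and 121 CPM.

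Col17a1, the hemidesmosome collagen that spans the basal keratinocyte membrane, was the leading epithelial member. It stood at 907, 1822, 815 and 1629 CPM in basal keratinocytes, with both PD libraries above both controls by just under 2-fold after 10 CPM was added, so it was not called. Suprabasal keratinocytes had 150, 205, 174 and 151 CPM. The class named cycling (cluster E1, with 36, 777, 43 and 999 cells) had 719, 1684, 747 and 1408 CPM. Thinned to 1000 UMIs, 57.5%, 73.8%, 50.3% and 69.2% of basal cells had a Col17a1 UMI (88.9%, 81.9%, 80.1% and 88.3% unthinned) against 15.9%, 15.9%, 17.4% and 12.7% of suprabasal cells. One basal cluster, E6, came almost wholly from the cKO control (1602 of 1618 cells) with Col17a1 at 670 CPM there. In the other large basal cluster, E0, the levels were 909, 1826, 1005 and 1631 CPM. Outside the basal class, an unnamed cluster, E14, led by H19 and Pxdc1 (7, 1710, 6 and 325 cells), had Col17a1 at 1644 and 1147 CPM in the PD libraries, so the basal class does not hold all cells with high Col17a1.

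Other basal keratinocyte members were low and mostly did not differ. Col7a1, the anchoring fibril gene, was at 28.7, 48.2, 23.9 and 27.7 CPM, Col4a5 at 19.8, 34.8, 18.6 and 43.3 CPM and Col4a6 at 16.5, 16.1, 14.3 and 24.2 CPM. Col18a1 was at 66.6, 69.7, 54.2 and 60.6 CPM and Col8a1 at 37.4, 42.9, 45.3 and 43.3 CPM. Called members were 4 higher and 2 lower of 22 in cHet (3.4% and 3.32% of all genes) and 1 higher and 0 lower of 19 in cKO (1.97% and 2.49%). Col12a1, at 42.5, 13.4, 38.5 and 20.8 CPM, was 1 of those lower in cHet. The called Col1a1 was at 3.48, 67.0, 2.82 and 43.3 CPM, and suprabasal keratinocytes had 6.63, 87.4, 1.94 and 74.6 CPM. The basal level was thus below the suprabasal one in both PD libraries, and the part of free RNA in it was not tested. Col14a1 was at 99.2 CPM in cHet PD basal cells, 37 UMIs in 21 of 116 cells, against 0.201, 2.37 and 1.73 CPM in the other libraries and 0.949 CPM in suprabasal cells of the same library. Between the controls, 0 of 27 members were called, with 0.156% and 0.0468% of all genes called.

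The remaining members were rare or kept to small classes. Col28a1, known from Schwann cells of peripheral nerve, was at 213, 409, 208 and 809 CPM in 11, 24, 25 and 10 Schwann cells and at most 2.84 CPM in blood endothelium. Col20a1 was at 85.0, 341, 29.7 and 0 CPM in Schwann cells, where its 20 UMIs in the cHet PD library came from 4 cells. Col25a1, a transmembrane collagen, was at 65.6, 109, 49.6 and 19.7 CPM in gland or airway epithelium and at 84.5, 211 and 101 CPM in the chondrocytes of the 3 libraries that held them. Lymphatic endothelium had Col4a1 at 234 and 2098 CPM in the 9 and 36 cells of the cHet libraries. The chains Col4a3, Col4a4, Col6a4, Col19a1 and Col26a1 had 54, 125, 25, 99 and 39 UMIs over all libraries, too few for a level by type, except that 25 of the Col4a4 UMIs were in cHet control fibroblasts, 80% of them in 5 cells.

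The comparisons between genotypes use the same libraries as those above. In PD fibroblasts 8 of 27 members were higher in cKO and 2 lower, against 3.56% and 6.24% of all genes. With the mean over cells 5 were higher and 1 lower, and thinned to 1000 UMIs 3 were higher and 1 lower. Higher were Col12a1 (2.17-fold), Col11a1 (2.06-fold), Col7a1 (3.54-fold), Col8a2 (6.76-fold), Col18a1 (2.27-fold), Col16a1 (2.30-fold), Col6a5 (2.65-fold) and Col23a1 (4.60-fold), while Col6a6 and Col17a1 were lower. The cKO PD fibroblasts were 74 cells, of which 35 lay in the 2 clusters with Ibsp. In control fibroblasts 1 of 27 was higher in cKO, Col23a1 (3.67-fold), and 5 were lower, against 4.37% and 4.94%: Col5a3, Col5a1, Col8a1, Col13a1 and Col4a4.

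Mural cells went the other way with PD: 1 of 20 members was higher in cKO PD than in cHet PD and 9 were lower, against 5.35% and 4.9%. With the mean over cells, and thinned to 1000 UMIs, the counts were 0 higher and 4 lower, and with at most 10% mitochondrial UMIs 5 were lower. Col15a1 was 3.99-fold lower (3.29 to 4.89), Col6a3 3.22-fold, Col5a3 3.21-fold, Col1a1 2.79-fold, and Col1a2, Col4a1, Col5a1, Col5a2 and Col6a1 2.08-fold to 2.19-fold lower, while Col4a5 was 2.54-fold higher. Within cluster S12 Col1a1 was 26075 CPM in cHet PD and 17916 CPM in cKO PD, a smaller gap than in the class as a whole, and in cluster S13 the order was turned, with 214 CPM in cHet PD and 985 CPM in cKO PD. In control mural cells 2 of 19 members, Col8a1 and Col13a1, were higher and 0 lower in cKO, against 2.77% and 2.06%.

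In endothelium 7 of 24 members were higher and 1 lower in cKO PD than in cHet PD, against 0.963% and 1.54%, and 4 of the 7, Col2a1, Col9a1, Col9a2 and Col11a1, were the cartilage genes that sat in few cells. Between control endothelia 1 of 25 was higher and 7 lower in cKO, against 0.751% and 0.636%, and 4 of the 7 were Col2a1, Col9a1, Col11a1 and Col11a2. Type IV and multiplexin chains were not called between genotypes in endothelium. Basal keratinocytes of the PD libraries had 0 of 11 members higher and 1 lower in cKO, Col14a1, against 1.69% and 1.5%, and cycling cells 0 of 18 in either direction, against 0.301% and 0.321%. Cycling cells of the cKO pair had 3 of 17 members higher with PD and 0 lower, against 7.43% and 3.74%. These were Col1a1 (173 UMIs in PD against 0), Col1a2 (88 against 1) and Col23a1 (107 against 3), with 999 PD and 43 control cells. The part of free RNA in them was not tested. The cycling class was cluster E1, with 36, 777, 43 and 999 cells. The basal cluster E0, with 2427, 115, 998 and 211 cells, also had Top2a and Ube2c among its 10 leading genes. At Leiden resolution 2, the cluster named cycling held 725, 35, 393 and 65 cells. A cluster of 35, 765, 48 and 943 cells was then unnamed. So cells with cycling genes also lie outside the class, and its make-up depends on the clustering.

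Genes that fold, cut and crosslink collagen were followed as a list of 37. In fibroblasts 3 of 33 were higher and 2 lower with PD in cHet (median log2 fold 0.34, against -0.08 over all genes), and 10 of 29 higher and 2 lower in cKO (0.12 against -0.19). The shares of all genes called higher and lower were 6.98% and 10.9% in cHet fibroblasts and 7.09% and 15.7% in cKO fibroblasts, so the cHet counts of the list were near or below the background. In the other types these shares are those given with the collagens: 12.1% and 10.5%, then 7.25% and 9.11% in mural cells, 5.85% and 5.35%, then 3.78% and 5.3% in endothelium, and 3.4% and 3.32%, then 1.97% and 2.49% in basal keratinocytes. They hold for the next lists too. Lox, the oxidase that starts the crosslinks, was at 351 and 1508 CPM in cHet and 169 and 824 CPM in cKO fibroblasts, 4.30-fold and 4.88-fold higher. Plod2, which hydroxylates lysines for those crosslinks, was 3.71-fold and 9.06-fold higher, whereas Pcolce, an enhancer of procollagen cutting, was 2.94-fold and 2.31-fold lower. Mural cells had 16 of 25 higher and 0 lower in cHet (median 1.34 against 0.05) and 4 of 24 higher and 0 lower in cKO (0.32 against 0.00). Adamts2, which removes the procollagen end piece, was 6.07-fold and 6.95-fold higher there, and Sparc, a collagen-binding matricellular protein, 4.2-fold and 2.33-fold. Endothelium had 2 of 27 higher and 2 lower in cHet (0.11 against 0.02), and 2 of 26 higher and 0 lower in cKO (-0.13 against -0.04). Basal keratinocytes had 0 of 25 in either direction in cHet, and 2 of 26 higher, Sparc and P4ha1, and 0 lower in cKO.

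Partners of type IV collagen in the basement membrane, a list of 23, were higher in endothelium with PD for 7 of 17 members and lower for 1 in cHet (median log2 fold 0.54 against 0.02), and higher for 6 of 16 and lower for 0 in cKO (0.85 against -0.04). The laminin chain Lamb1 was 6.30-fold and 3.41-fold higher, the linker Nid2 6.16-fold and 3.74-fold, the laminin chain Lamc1 5.24-fold and 2.81-fold, and Pxdn, the peroxidase that crosslinks type IV collagen, 5.31-fold and 2.38-fold. In mural cells 7 of 13 were higher and 1 lower in cHet (1.16 against 0.05) and 8 of 16 higher and 1 lower in cKO (0.95 against 0.00). Basal keratinocytes had 1 of 17 higher in cHet, Lamc1, and 3 of 16 in cKO, Smoc2, Lamb1 and Lamc1, with 0 lower. Of 14 collagen receptors and uptake genes, Cd44 was higher in fibroblasts of both genotypes (3.81-fold and 4.0-fold), 1 of 9 members called higher in cHet and 1 of 6 in cKO, with 2 and 0 called lower. Cd93, an endothelial lectin-like receptor, was higher in endothelium of both genotypes (2.23-fold and 2.02-fold), where 3 of 9 were called higher in cHet and 1 of 9 in cKO, with 0 lower. In mural cells 1 of 7, Cd44, was higher and 1, Cd93, lower in cHet, and 1 of 8, Cd93, higher and 0 lower in cKO. Cd93 thus went opposite ways there, 3.36-fold lower in cHet and 4.54-fold higher in cKO, and the difference was not tested. In basal keratinocytes 0 of 7 were called in either genotype.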

How the data were processed

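UMI counts per gene and barcode were deposited by the authors as 1 matrix per library. Reads were processed with fastp and STARsolo 2.7.10a on mm10, per the submitters' processing notes. The labels name a BD Rhapsody capture and also 10x Genomics. Barcodes with at least 200 genes and at most 20% mitochondrial UMIs were kept. The doublet caller Scrublet (5% expected) marked only 2 cells of the 4 libraries, and so did not work. No cell was removed by it, and leaving out the highest 5% of scores is an alternative.

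Cells were clustered with scanpy 1.11.5 (2000 variable genes, 30 principal components, 15 neighbours, Leiden resolution 1) without 119 genes, namely the collagens, the followed lists and Itga9. Stromal and immune clusters were clustered again. A further split of stromal clusters that were led by a gene of another type, and the settings that leave out clusters, were chosen after seeing the data. A cluster was named where at least 3 markers of a type stood among its top 50 genes and its top 10 held more markers of that type than of any other. Names are rebuilt here and may differ from the study's.

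UMIs were summed per type and library. Intervals are exact Poisson intervals for levels and exact conditional binomial intervals for ratios, computed with scipy 1.17.1. A type needed at least 40 cells in both libraries for a call at the main setting. Some alternatives were run with fewer, such as 39 cKO PD fibroblasts without the clusters with 100 CPM of Ibsp. The cKO control fibroblasts at Leiden resolution 2 were also fewer. With 1 library per group no p-value was computed. Shares of cells were also taken after thinning to 1000 UMIs per cell, without shallower cells. The call rule was also run on simulated Poisson counts drawn from the gene totals of cHet control fibroblasts. Such counts hold no clumping in few cells and no difference between mice, so that run cannot speak to either. TMM factors came from edgeR 4.0.16.

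The members, the gene lists (collagen processing and crosslinking, receptors and uptake, basement membrane partners) and the tests were chosen with earlier results of these data known. By rule, the text accounts for members by structural group, gives values for those that head a type or were called (at most 10 per type and pair) and for a set of 25 collagens, and names at most 4 called genes per list, type and pair.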

Additional observations from a re-analysis of the deposited data

Results flagged for a closer look

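The cartilage collagens in blood endothelial cells moved in opposite directions with PD in the 2 genotypes, and the difference was not tested, since each group was 1 library. The log2 fold of PD over control, with 10 CPM added, was -2.67 in cHet and 2.28 in cKO for Col2a1. For Col9a1 it was -1.98 and 1.58, and for Col11a1 -1.21 and 2.15. The 44 Col2a1 UMIs of the cKO PD library lay in 3 endothelial cells and the 46 of the cHet control in 12 cells. Chondrocytes numbered 146 in the cHet control, 0 in cHet PD, 16 in the cKO control and 62 in cKO PD, and their part in these values was not tested.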

How the results depend on the processing

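Counts of called collagens were recomputed under each alternative: 241 of 308 values stayed within 1.5 times, and 67 did not. In both genotypes the counts of members higher with PD in fibroblasts and mural cells stayed within 1.5 times under every alternative run. At Leiden resolution 2 the cKO fibroblast counts rest on fewer cKO control cells than the main setting required. No paired analysis was possible because the groups hold no second library, and no replicate could be left out. Below, "controls" and "PD libraries" compare cKO with cHet, a genotype alone compares PD with control, and the cause was not tested except where fewer genes or cells were used.

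With 50 UMIs required over the pair, mural cells had 0 lower in cHet and 1 higher in controls, fibroblasts 3 lower in controls, basal keratinocytes 0 lower in PD libraries, and endothelium 0 lower and 9 higher in cKO, 0 lower in cHet, 0 higher and 1 lower in controls, and 4 higher in PD libraries. With Leiden resolution 2, mural cells had 1 lower in controls, and fibroblasts 1 lower in cKO and 3 higher and 3 lower in controls. Endothelium then had 0 higher in controls and 0 lower in PD libraries, and basal keratinocytes 0 lower in cHet and 2 higher in cKO. At that resolution a cluster of 23 cHet control and 74 cKO control cells, led by Apod, was unnamed and not counted as fibroblasts. The fibroblast clusters with cKO control cells held 17, 1, 1 and 5 of them, fewer together than the main setting required. With TMM factors, with 1500 UMIs per cell, with totals without collagens, and without the clusters with 100 CPM of Ibsp, fibroblasts had 2 lower in cKO. The last of these settings left 39 cKO PD fibroblasts. With at most 10% mitochondrial UMIs, mural cells had 0 lower in cKO and 5 lower in PD libraries, fibroblasts 2 lower in cKO and 3 higher in controls, endothelium 3 lower in cHet and 0 higher and 1 lower in controls, and basal keratinocytes 0 lower in cHet and 3 higher in cKO. That setting was not run for mural cells against the cHet control, which kept 12 cells.

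With the mean over cells, mural cells had 0 lower in both genotypes and 0 higher and 4 lower in PD libraries, fibroblasts 2 lower in cKO and 5 higher and 1 lower in PD libraries, endothelium 3 lower in cHet, 2 higher in controls and 2 lower in PD libraries, and basal keratinocytes 2 higher in cKO. Thinned to 1000 UMIs, mural cells had 0 lower in cHet and 0 higher and 4 lower in PD libraries. Fibroblasts then had 3 lower in cHet, 2 lower in cKO, 0 lower in controls, and 3 higher and 1 lower in PD libraries. Endothelium had 0 lower in both genotypes, 9 higher in cKO and 0 lower in controls, and basal keratinocytes 1 higher and 0 lower in cHet, 2 higher in cKO and 0 lower in PD libraries.

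Without the top 5% of doublet scores, endothelium had 0 lower in cKO, 0 higher in controls and 3 higher in PD libraries. Without the cluster mostly of the cKO control, basal keratinocytes had 1 lower in cKO. Without the clusters with 100 CPM of Dcn, endothelium had 1 lower in cHet, 0 lower in cKO, 2 higher and 1 lower in controls and 11 higher in PD libraries.

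TMM scaling moved the median log2 fold of all genes by over 0.1 in mural cells in cHet (0.118), fibroblasts in cHet (0.179) and cKO (0.109), and basal keratinocytes in cHet (-0.23) and cKO (-0.244).

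Of 1203 values of single members, 946 stayed, 254 moved and 3 reversed. The moves were uneven between settings. Thinned to 1000 UMIs 53 of 126 moved, and with the mean over cells 51 of 126. Without the clusters with 100 CPM of Ibsp 17 of 36 moved, and without those with 100 CPM of Dcn 18 of 42. With 50 UMIs required 4 of 126 moved, and with TMM scaling 13 of 126. At the main setting Col14a1 in endothelium was called lower with PD in both genotypes (log2 fold -1.66 in cHet and -1.10 in cKO). Without the top 5% of doublet scores its log2 fold in cHet was 0.0044. The log2 fold of Col3a1 in endothelium between controls was then 0.1188. Without the clusters with 100 CPM of Dcn the Col3a1 value was 0.61.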
